A study of Mus musculus with 2 samples.

Results

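Paired receptors are families of myeloid and lymphoid surface proteins in which closely related members send opposite signals. Inhibitory members carry tyrosine motifs (ITIMs) in their tails that recruit phosphatases such as SHP-1, whereas activating members have short tails and signal through adaptors such as DAP12 or FcRγ, which engage the kinase SYK. The Lilr, Pilr and Cd300 families are of this kind, and in microglia, the resident macrophages of the brain, DAP12 signalling is best known through the receptor TREM2. The 9 genes described here are Lilrb4a, Pilra, Pilrb1, Pilrb2, Cd300a, Cd300lf, Cd300ld, Cd72 and Cd244. They were chosen by name from 31053 features, with their difference between the libraries already known, so their levels are a description and carry no test.

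The study compared microglia of wild-type (WT) mice with microglia labelled IRF8KO, a knockout of the myeloid transcription factor IRF8. Both groups were FACS-sorted microglia from untreated 3-month-old female C57BL/6 mice, isolated without enzymes and measured by droplet single-cell RNA sequencing. Each library pooled 3 mice of a genotype, so there was 1 library per genotype, no replicate and no test. The labels do not name the Irf8 allele, and the IRF8KO sample is so named by its title while its genotype field gives WT, so it is called the library labelled IRF8KO. Cells entered with 1000 or more UMIs (molecular tags that each count 1 captured transcript), 500 or more genes and no more than 10% of UMIs from mitochondrial genes. Cells were compared in 3 groups: 3304 WT cells, 5007 IRF8KO cells with under 2% of their UMIs in the neutrophil genes Camp, Ngp, S100a8, S100a9, Lcn2 and Ltf (cells under the gate), and the 98 other IRF8KO cells. The threshold fell in a gap: the highest cell under it had 0.232% and the lowest above it 2.36%.

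WT cells held 18543061 UMIs in all (median 3204.5 per cell), IRF8KO cells under the gate 18980263 (median 2933) and the other IRF8KO cells 842948 (median 7057.5). The libraries shared 5 cell barcodes. Irf8 itself stood at 794 CPM (UMIs of the gene per 1000000 UMIs of the group) in WT cells and 669 CPM in IRF8KO cells under the gate. The allele is not named in the labels, so whether the counted 3′ end lies in the deleted part is not known and this level does not check the label. Of 11 microglia markers, 5 were at least 2-fold lower in IRF8KO cells under the gate and all 11 were detected there, with Sall1 at 2.85 CPM against 511 CPM in WT. The list of 11 border macrophage markers summed to 265 CPM in WT and 3543 CPM in IRF8KO cells under the gate, with Mrc1 at 11.4 and 503 CPM and Stab1 at 251 and 524 CPM, while Folr2 was at 1.73 and 0.211 CPM. The other IRF8KO cells held the neutrophil genes Elane, Fcnb and Ly6g, and no UMI of Sall1. The part of these changes in cell makeup in the receptor levels was not tested. Fewer positive cells and less RNA per cell cannot be told apart from a summed level.

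The Pilr genes lie side by side on chromosome 5 of GRCm38, all on the minus strand: Pilra at chr5:137821952-137836281, Pilrb1 at chr5:137852147-137858106 and Pilrb2 at chr5:137865827-137871815. Their upstream regions are shown because they are near copies of each other. Over the 250 bases before each start (RefSeq, GRCm38.p6), Pilra and Pilrb2 aligned at 99.49% identity over 196 bases with 1 mismatch, Pilra and Pilrb1 at 97.96% over 196 bases with 4 mismatches, and Pilrb1 and Pilrb2 at 98.4% over 250 bases with 4 mismatches. The regions are chr5:137836279-137836528, chr5:137858050-137858299 and chr5:137871759-137872008, each printed 5′ to 3′ on the gene's strand, with motif matches in capitals.
Pilra: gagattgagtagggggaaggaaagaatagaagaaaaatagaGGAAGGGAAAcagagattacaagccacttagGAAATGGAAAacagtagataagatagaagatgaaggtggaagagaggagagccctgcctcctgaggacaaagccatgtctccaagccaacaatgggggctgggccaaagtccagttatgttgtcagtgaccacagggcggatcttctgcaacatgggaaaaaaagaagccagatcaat
Pilrb1: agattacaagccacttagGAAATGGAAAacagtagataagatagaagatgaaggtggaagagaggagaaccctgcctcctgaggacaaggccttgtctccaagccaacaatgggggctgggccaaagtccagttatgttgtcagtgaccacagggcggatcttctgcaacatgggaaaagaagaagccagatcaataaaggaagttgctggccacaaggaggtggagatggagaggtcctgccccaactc
Pilrb2: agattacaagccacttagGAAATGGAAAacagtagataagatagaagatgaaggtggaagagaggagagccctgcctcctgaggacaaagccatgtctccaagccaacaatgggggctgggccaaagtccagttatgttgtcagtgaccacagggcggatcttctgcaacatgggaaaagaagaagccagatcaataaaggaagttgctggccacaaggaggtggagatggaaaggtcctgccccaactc

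The motifs searched, on both strands, were GAGGAAGT (PU.1 core), an ETS-IRF composite (GGAA, any 2 bases, GAAA), an interferon response type (GAAA, any 2 bases, GAAA) and TGANTCA (AP-1). The composite and the interferon type differ in a single letter and cannot match at the same start, and TGANTCA reads the same on both strands. All 3 Pilr regions held the same interferon response type match, GAAATGGAAA, and Pilra alone of the 3 also held an ETS-IRF match, GGAAGGGAAA, in the stretch that its window reaches and theirs do not. Among 32851 promoters of the table, 2.98% held the interferon response type and 2.30% the composite in the same window. Of the 9 receptor genes, 8 were in the table and 6 held a match to at least 1 motif. Among these 6 are the 3 Pilr regions, near copies that share a match. The share of all promoters with at least 1 of the motifs was not computed, so nothing is read from this count. Cd300ld and Cd72 held the PU.1 core (2.44% of all promoters), Cd244 held the AP-1 motif (6.75%), and Cd300a and Cd300lf held none. A match is a string in this window and shows no binding. The upstream regions of Cd300a and Cd300ld, from the same locus with log2 ratios of 0.24 and 6.50, are shown for comparison, at chr11:114889791-114890040 on the plus strand and chr11:114989887-114990136 on the minus strand, with the PU.1 core in capitals.
Cd300a: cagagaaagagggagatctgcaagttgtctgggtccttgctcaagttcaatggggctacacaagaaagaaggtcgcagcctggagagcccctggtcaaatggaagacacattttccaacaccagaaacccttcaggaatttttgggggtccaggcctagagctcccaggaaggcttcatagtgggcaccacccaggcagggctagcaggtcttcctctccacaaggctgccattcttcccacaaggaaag
Cd300ld: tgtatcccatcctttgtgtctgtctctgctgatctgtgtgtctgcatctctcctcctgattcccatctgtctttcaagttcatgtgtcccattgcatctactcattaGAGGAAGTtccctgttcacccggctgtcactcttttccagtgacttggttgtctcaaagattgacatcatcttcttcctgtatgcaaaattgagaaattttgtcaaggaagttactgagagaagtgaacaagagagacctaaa

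Of the 9 receptor transcripts, 8 were at least 4-fold higher in IRF8KO cells under the gate than in WT cells, none was 2-fold lower, and Cd300a was nearly level. The log2 ratios of the 8 ran from 2.82 to 6.50. Among 8859 features with at least 10 CPM in either group, 5.61% were at least 2-fold higher, 9.28% at least 2-fold lower and 2.61% at least 4-fold higher, with a median log2 ratio of -0.28. Because the genes were chosen on this contrast, nothing is read from their count beside these shares. Of the 9, 8 had at least 10 CPM in WT cells or IRF8KO cells under the gate, and 7 of these were at least 2-fold higher. Pilrb1, at 4.43 CPM under the gate, is counted among the higher receptors but is outside the 8859 features. Of the receptors inside, only Pilra and Cd300a had 10 CPM in WT cells, so the others could pass the filter only by being high in the IRF8KO library. Rescaling the totals moved the median of all genes by 0.26 (TMM), 0.24 (DESeq2 size factors) or 0.32 (totals without mitochondrial, ribosomal protein and Apoe transcripts) on the log2 scale. It also moved the share of 2-fold calls that were higher from 37.7% to 55.8%, 54.5% and 59.6%, while the count of 8 receptors higher and 0 lower was the same in each. Intervals below are exact 95% intervals and cover counting error only. CPM of 3′ UMIs are compared between groups for a gene, never between genes.

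**Figure D1:**
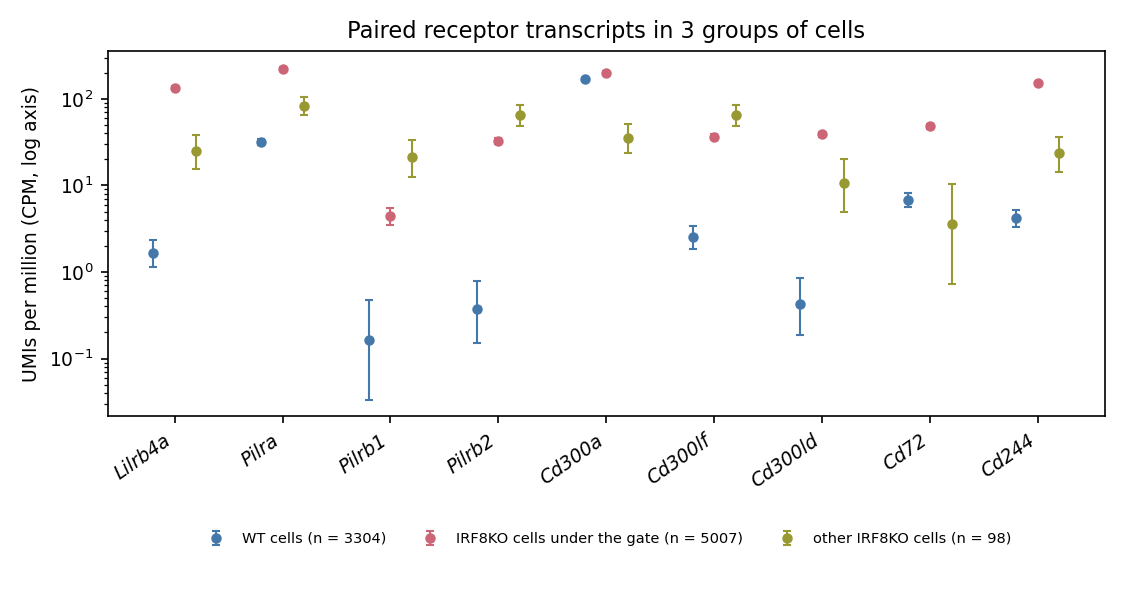
CPM (log axis) of the 9 receptor genes in WT cells, IRF8KO cells under the gate and the other IRF8KO cells, with exact 95% Poisson intervals that cover counting error only. In 8 of the 9 genes the IRF8KO cells under the gate sit far above WT, while Cd300a stands at 170.5 and 201.7 CPM, and Pilrb1, Pilrb2 and Cd300lf are highest in the other IRF8KO cells.

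Among the inhibitory receptors, Lilrb4a (chr10:51490956-51496611), an ITIM receptor of the leukocyte immunoglobulin-like family, had 31 WT UMIs and 2562 UMIs in IRF8KO cells under the gate. This was 1.67 CPM (1.14 to 2.37) against 135.0 CPM (129.8 to 140.3), a log2 ratio of 6.34 (5.83 to 6.90). In the other IRF8KO cells 21 UMIs gave 24.9 CPM (15.4 to 38.1), between the larger groups. After each cell was thinned to 2000 UMIs, 0.265% of 3019 WT cells, 20.1% of 4509 IRF8KO cells under the gate and 3.09% of the 97 other IRF8KO cells had a Lilrb4a UMI, against 0.696%, 30.4% and 14.3% of cells without thinning. The last 400 bases of Lilrb4a matched the neighbouring Lilr4b at 97.25% and the readthrough gene Gm49339 at 100%, so the split of reads among them is uncertain. Lilr4b had 16 UMIs in WT cells against 94 in IRF8KO cells under the gate, a lower log2 ratio of 2.52 (1.75 to 3.39). In the other IRF8KO cells it was at 23.7 CPM.

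Pilra, an inhibitory receptor for sialylated ligands, had the most WT UMIs among the receptors that were higher. Its 591 UMIs in WT cells gave 31.9 CPM (29.4 to 34.5) and its 4261 UMIs in IRF8KO cells under the gate gave 224.5 CPM (217.8 to 231.3), a log2 ratio of 2.82 (2.69 to 2.94). The other IRF8KO cells stood between, at 83.0 CPM (64.7 to 104.9). At equal depth 5.73% of WT cells, 34.4% of IRF8KO cells under the gate and 17.5% of the other IRF8KO cells had a Pilra UMI.

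Cd300a (chr11:114890041-114904654), an inhibitory receptor for phosphatidylserine and phosphatidylethanolamine, was the exception. It had 3162 UMIs, or 170.5 CPM (164.6 to 176.6), in WT cells and 3829 UMIs, or 201.7 CPM (195.4 to 208.2), in IRF8KO cells under the gate. The log2 ratio was 0.24 (0.17 to 0.31), which was 0.52 above the median of all genes. Its share of cells at equal depth was 28.4% in WT and 32.7% in IRF8KO cells under the gate, against 3.09% in the other IRF8KO cells, which had 35.6 CPM.

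Cd300lf (chr11:115116214-115133992) carries inhibitory motifs, although it can also couple to activating pathways, and binds phosphatidylserine and ceramide. Its CPM was 2.53 (1.86 to 3.37) in WT cells and 36.7 (34.0 to 39.6) in IRF8KO cells under the gate, a log2 ratio of 3.86 (3.43 to 4.32). The other IRF8KO cells were higher again, at 65.2 CPM (49.1 to 84.9).

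Cd72 (chr4:43446462-43454628) is an inhibitory lectin-like receptor best known from B cells, with the semaphorin Sema4d as a ligand. It had 127 UMIs, or 6.85 CPM (5.71 to 8.15), in WT cells and 915 UMIs, or 48.2 CPM (45.1 to 51.4), in IRF8KO cells under the gate, a log2 ratio of 2.82 (2.55 to 3.09). Only 3 UMIs were counted in the other IRF8KO cells, 3.56 CPM (0.734 to 10.4). The B cell genes Pax5 and Fcmr were without a UMI in all 3 groups. The 8 B cell markers summed to 313 CPM in WT cells, nearly all of it Ighm (264 CPM) and Cd79b (49.0 CPM), and to 26.4 CPM in IRF8KO cells under the gate.

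The 3 activating members had the fewest WT UMIs of the set. Pilrb2, a DAP12-coupled receptor, had 7 UMIs in WT cells, 0.378 CPM (0.152 to 0.778), and 622 in IRF8KO cells under the gate, 32.8 CPM (30.2 to 35.4), a log2 ratio of 6.44 (5.39 to 7.76). Pilrb1, its near copy, had 3 UMIs in WT cells, 0.162 CPM (0.0334 to 0.473), and 84 in IRF8KO cells under the gate, 4.43 CPM (3.53 to 5.48), a log2 ratio of 4.77 (3.18 to 7.08). The last 400 bases of their transcripts agreed at 98.75%, so the division of reads between them is uncertain. Their sum, 10 WT UMIs and 706 UMIs in IRF8KO cells under the gate, does not depend on that division and had a log2 ratio of 6.11 (5.22 to 7.17). Both were higher still in the other IRF8KO cells, Pilrb2 at 65.2 CPM (49.1 to 84.9) and Pilrb1 at 21.4 CPM (12.7 to 33.7).

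Cd300ld (chr11:114982274-114989922), an activating Cd300 receptor, had 8 UMIs in 7 WT cells, 0.431 CPM (0.186 to 0.850). In IRF8KO cells under the gate it had 739 UMIs, 38.9 CPM (36.2 to 41.9), a log2 ratio of 6.50 (5.51 to 7.71). The intervals of Cd300ld, Pilrb2 and Lilrb4a overlapped. At equal depth no UMI was left in 3019 WT cells, against 7.01% of IRF8KO cells under the gate. The other IRF8KO cells had 9 UMIs, or 10.7 CPM (4.88 to 20.3).

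Cd244 (chr1:171559193-171609746), also called 2B4, is a receptor of the Slam family that binds Cd48 and can activate or inhibit according to the adaptor it meets. It had 78 UMIs, or 4.21 CPM (3.32 to 5.25), in WT cells and 2901 UMIs, or 152.8 CPM (147.3 to 158.5), in IRF8KO cells under the gate, a log2 ratio of 5.18 (4.86 to 5.53). At equal depth it was found in 0.795% of WT cells and 23.6% of IRF8KO cells under the gate. Of 10 T and NK cell markers, none had a UMI in WT cells, and 8, Cd3e and Ncr1 among them, had none in IRF8KO cells under the gate, where Klrd1 had 54 UMIs. Cd244 overlaps Ly9, a Slam gene on the opposite strand, and whether the counting used strand is not given in the sources used here. Opposite-strand genes also overlap Pilra (Zcwpw1), Cd300lf (Rab37), Cd72 (Tesk1), Lilrb4a (Gm40645), Pilrb1 (Gm36551) and Pilrb2 (Gm43495), so this holds for 7 of the 9 receptors.

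**Figure D2:**
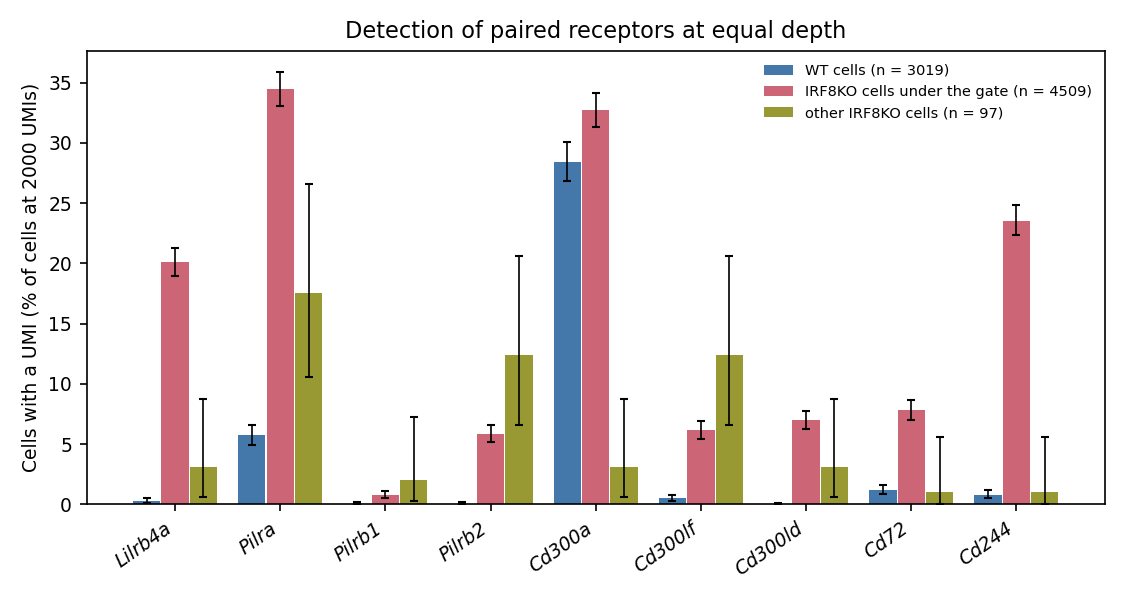
Share of cells with at least 1 UMI of each receptor gene after thinning every cell to 2000 UMIs, in 3019 WT cells, 4509 IRF8KO cells under the gate and 97 other IRF8KO cells, with exact 95% binomial intervals. Lilrb4a, Pilra and Cd244 reach 20.1%, 34.4% and 23.6% in IRF8KO cells under the gate, and Cd300a differs little between the larger groups.

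Detection at 2000 UMIs stayed sparse even for the higher receptors. In IRF8KO cells under the gate the mean was 1.04 to 1.30 UMIs per positive cell over the 9 genes, and the 50 cells with most Lilrb4a held 11.4% of its UMIs. In WT cells, 12 of the 31 Lilrb4a UMIs lay in 6 cells of a single small cluster described below. Transcripts of the gate genes were also found under the gate, with S100a9 in 4.66% and Camp in 1.13% of cells at equal depth, against 0.132% and 0% in WT. The 6 gate genes stood under the gate at 0.00613% to 0.0135% of their CPM in the other IRF8KO cells. The groups were split on these genes, so their low share is set by the rule and is no yardstick for the receptors. Pilrb1 stood at 20.7%, Pilrb2 at 50.2% and Cd300lf at 56.3%. In the reverse direction, C1qa, P2ry12, Cx3cr1 and Apoe stood in the other IRF8KO cells at 11.8% to 16.7% of their CPM under the gate. On the same scale Cd72 stood at 7.38%, Cd244 at 15.5%, Cd300a at 17.6%, Lilrb4a at 18.5%, Cd300ld at 27.4% and Pilra at 37.0%.

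The receptors were unevenly divided between the other IRF8KO cells and those under the gate. Of the 9, 3 were higher in the other IRF8KO cells with an interval above 0, by log2 ratios of 2.27 (1.45 to 3.02) for Pilrb1, 0.99 (0.57 to 1.39) for Pilrb2 and 0.83 (0.41 to 1.23) for Cd300lf. Of these, only Pilrb1 passed 2-fold. The remaining 6 were at least 2-fold lower, from -1.43 for Pilra to -3.76 (-6.04 to -2.21) for Cd72. Among 8798 features tested in this comparison 11.4% were at least 2-fold higher and 44.9% at least 2-fold lower, with a median of -0.85. The 6 gate genes alone took 389606 CPM in the other IRF8KO cells, against 48.7 CPM under the gate. This lowers the CPM of every other gene in the other IRF8KO cells. Totals without the gate genes were not used here, so which receptors pass 2-fold in either direction depends on this scaling. A split of the 98 cells by Apoe, the main transcript of the IRF8KO cells under the gate, was added after the values were seen. In the 86 cells with under 0.5% of their UMIs in Apoe there was no UMI of Cd244 or Cd72 (0 to 5.65 CPM), and 1 of Cd300ld. All 20 Cd244 UMIs lay in 5 of the 12 cells with at least 0.5% Apoe. The 86 cells held Pilra at 75.1 CPM, Pilrb2 and Cd300lf at 68.9 CPM each and Pilrb1 at 21.4 CPM, while Cd300a was at 10.7 CPM and Lilrb4a at 13.8 CPM.

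More receptors were detected together in an IRF8KO cell than in a WT cell. At 2000 UMIs the mean number of the 9 genes detected was 0.370 per WT cell, 1.38 per IRF8KO cell under the gate and 0.557 per other IRF8KO cell. At least 2 were found in 2.72% (2.17 to 3.36) of WT cells, 41.4% (40.0 to 42.9) of IRF8KO cells under the gate and 11.3% (5.80 to 19.4) of the other IRF8KO cells. Multiplying the single shares as if the genes were independent gave 2.52%, 41.9% and 9.74%, inside these intervals. At least 3 were found in 1 WT cell and in 14.9% (13.9 to 16.0) of IRF8KO cells under the gate, where the product gave 13.7%, below the interval, and the largest number was 6. None of the 9 was found in 23.4% of IRF8KO cells under the gate, against 20.3% from the product.

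**Figure D3:**
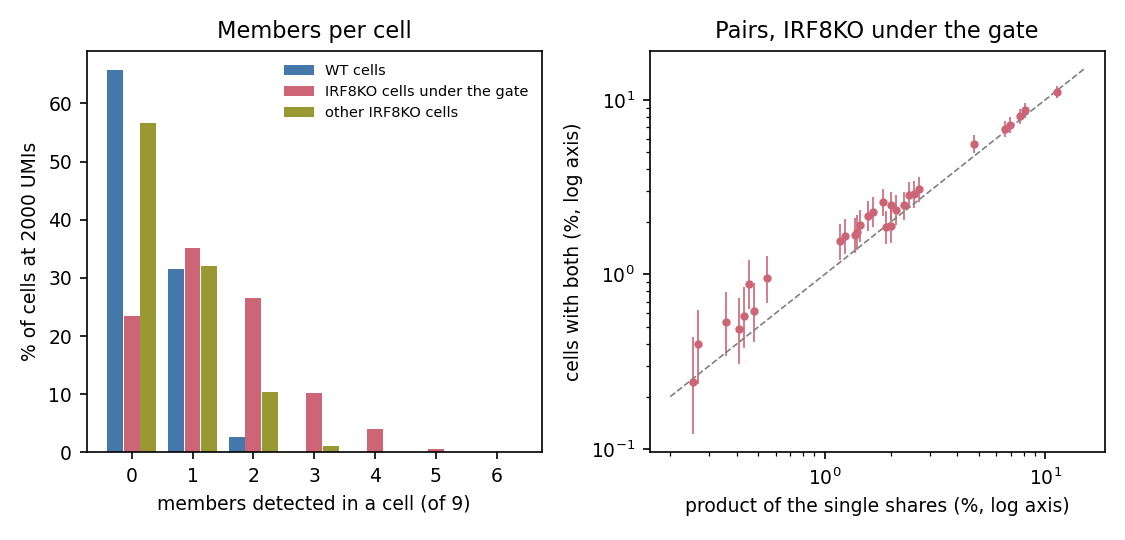
Left, share of cells (%) at 2000 UMIs by the number of the 9 receptor genes detected, in the 3 groups. Right, for the 30 pairs with an expected count of at least 10 cells, the share of IRF8KO cells under the gate with both genes against the product of their single shares (log axes, exact 95% intervals), with a dashed line where the 2 are equal, and most points lie on or somewhat above it.

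Pair by pair, co-detection in IRF8KO cells under the gate was more often above than below the product of the single shares. For 30 of the 36 pairs that product was at least 10 cells. The observed count was above it in 26, with the interval above it in 10 and below it in none, and the ratio ran from 0.938 to 1.95 with a median of 1.21. The highest ratios were those of Cd72 with Pilrb2 (40 cells against 20.5, ratio 1.95) and with Cd300ld (43 against 24.7, ratio 1.74). Next came Pilra with Pilrb1 (18 against 12.1, ratio 1.49) and Pilrb2 with Cd300lf (24 against 16.2, ratio 1.49). Cd72 with Cd244 followed (117 against 82.9, ratio 1.41). The lowest was that of Cd300a with Cd300lf (0.938), and Cd300a with Pilra was at 0.986. Within single clusters of IRF8KO cells, the median ratio was 0.997, 1.03 and 1.08 (clusters 5, 6 and 7 below), with no pair's interval apart from its product. Without thinning the median was 1.55 and all 33 pairs that could be compared were above the product, so the ratio depends on the depth of the cells compared.

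Kept cells of both libraries were clustered together, and each cluster came almost wholly from a single library. Clustering used 2000 variable genes of these same cells. Which of the receptors were among them is not given here, so levels by cluster are a description. WT cells fell into clusters 0 (2660 cells), 1 (516 cells, median 11854 UMIs), 3 (69 cells, median 1280 UMIs) and 4 (45 cells, led by Ccl4, Egr3 and Ccl3). IRF8KO cells fell into cluster 5 (2202 cells, led by Cd72, Fxyd5 and Ccl3), cluster 6 (2003 cells, led by Cck and Crybb1), cluster 7 (791 cells, led by Cxcl10 and H2-Eb1, with interferon response genes) and cluster 8 (96 cells, led by Ngp and Camp). Cluster 7 also held deeper cells, with a median of 5361 UMIs against 3148.5 in cluster 5 and 2508 in cluster 6. Its levels are therefore not those of an interferon state alone. No cluster is given a cell type name here, and they are called by number.

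All 9 receptors were highest in cluster 5, next in cluster 7 and lowest in cluster 6 among the 3 large IRF8KO clusters. This order held for 15.5% of 8493 genes. Of the 9, 7 were at least 2-fold higher in cluster 5 than in cluster 6, as were 1.79% of genes, and nothing is read from this since Cd72 is itself a leading gene of cluster 5. Cd72 ranged most, from 8.09 CPM (5.86 to 10.9) in cluster 6 to 44.7 in cluster 7 and 78.2 (72.1 to 84.7) in cluster 5. The cluster 6 interval overlapped those of WT cluster 0 (5.81 CPM, 4.35 to 7.60) and WT cluster 1 (7.31 CPM). A Cd72 difference between these 2003 IRF8KO cells and most WT cells was therefore not shown. Cd300ld was at 9.97, 43.2 and 55.6 CPM in the same order of clusters, and Pilrb2 at 9.97, 30.8 and 49.6 CPM. Lilrb4a was at 54.2, 132 and 192.5 CPM, and Cd244 at 69.8, 167 and 199.9 CPM, with no overlap of the cluster 5 and cluster 6 intervals in either. Pilra and Cd300a varied least, at 190, 231 and 244 CPM and at 164, 206 and 225 CPM. The intervals of clusters 5 and 7 overlapped for Pilra, Pilrb1, Cd300a and Cd300lf. Overlap alone does not decide whether an order lies within counting error, and ratios between these clusters were not given intervals.

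**Figure D4:**
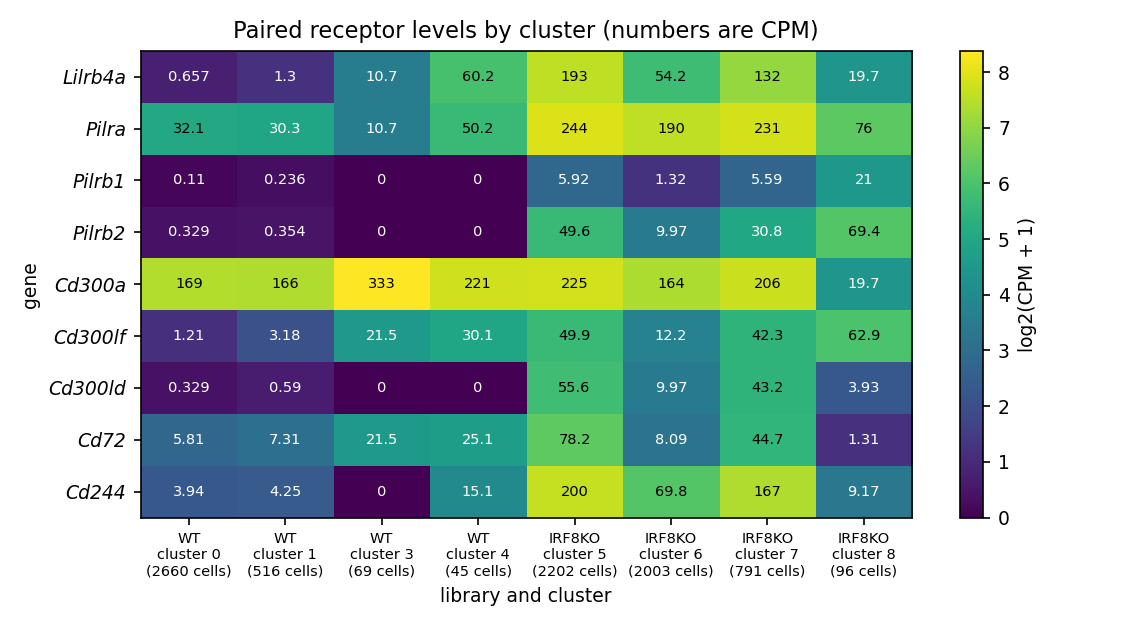
CPM of each receptor gene (numbers) in each library and cluster of at least 30 cells, coloured by log2(CPM + 1). The IRF8KO clusters 5, 6 and 7 are above WT clusters 0 and 1 for the genes other than Cd300a and Cd72, Cd72 stands at 8.09 CPM in cluster 6 against 5.81 and 7.31 CPM in WT clusters 0 and 1, and the neutrophil-gene cluster 8 keeps Pilra, Pilrb1, Pilrb2 and Cd300lf.

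WT cluster 4 held more Lilrb4a than the large WT clusters. Its 45 cells held Lilrb4a at 60.2 CPM (31.1 to 105), from 12 UMIs in 6 cells, whereas clusters 0 and 1 held 0.657 and 1.30 CPM. Cd300lf was at 30.1 CPM (11.0 to 65.5) in cluster 4 and 1.21 CPM in cluster 0, and Cd72 at 25.1 CPM (8.14 to 58.5) against 5.81 CPM. The shallow WT cluster 3 held both at 21.5 CPM (2.60 to 77.6) from 2 UMIs each, an interval that overlapped those of cluster 4, so neither gene set cluster 4 apart from all WT clusters. Pilrb1, Pilrb2 and Cd300ld had no UMI there, where 3 counts are 15.1 CPM. With finer clusters (Leiden resolution 1.0), a chemokine and Egr3 cluster held cells of both libraries, and Lilrb4a was at 25.0 CPM in its 101 WT cells and 350 CPM (61 UMIs in 23 cells) in its 47 IRF8KO cells. An interferon gene cluster also held both, and there Lilrb4a had no UMI in 36 WT cells (3 counts are 18.6 CPM) and was at 186 CPM in 54 IRF8KO cells. At that resolution 31 IRF8KO cells formed a cluster with Sall1 at 277 CPM and Apoe at 8114 CPM, against 2.85 and 88320 CPM over all cells under the gate. These 31 cells had no UMI of Lilrb4a, Pilrb1, Pilrb2, Cd300lf, Cd300ld or Cd72, where 3 counts are 27.7 CPM, with 11 UMIs of Pilra (102 CPM, 50.7 to 182), 17 of Cd300a (157 CPM) and 5 of Cd244 (46.2 CPM). That limit lies below the Lilrb4a level over all cells under the gate (135.0 CPM) and above that of Pilrb1 (4.43 CPM), for which a lower level was not detectable at this depth.

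The genes most like each receptor over the 8 groups of library and cluster were named by the Pearson correlation of log2(CPM + 1) among 10631 genes, as a description. These groups come from only 2 libraries, which they share. Pilra was most like Il2rg (r = 0.995), Itga4 (0.989) and Nlrc3 (0.989), and Cd244 most like Nlrc3 (0.992), Pilra (0.980) and Osgin1 (0.980). Pilrb2 was most like Trem1 (0.998), Itgal (0.991) and Ifitm2 (0.989), and Pilrb1 most like Pdlim7 (0.995), Plp2 (0.980) and Gpx3 (0.977). For Cd300ld the closest were Clec4d (0.990), Gm14221 (0.990) and Runx3 (0.988), and for Lilrb4a they were Ets2 (0.970), Glipr1 (0.954) and Cspg4 (0.946). Cd72 was most like Zmynd15 (0.937), Rgs1 (0.936) and Ppfibp1 (0.921). Cd300lf had only Tank above 0.9 (0.905), followed by Fosl2 (0.892) and Mical1 (0.861). Cd300a, by contrast, was matched above 0.9 by 1348 genes, led by Ugcg, Atp1b3 and Gm9856. These names depend on the clustering. At resolution 1.0, with 15 groups, Cd300a had 199 such genes and Cd300lf 0, and the 3 closest genes were all different for Lilrb4a, Pilrb1, Cd300a and Cd300lf. Those named at both resolutions were Itga4 for Pilra, Itgal for Pilrb2, Clec4d and Runx3 for Cd300ld, Zmynd15 for Cd72 and Pilra for Cd244.

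The family neighbours did not all go the same way. Of 14 other Lilr and Pir symbols listed, 5 were among the features by that symbol (Lilr4b, given above with a log2 ratio of 2.52, was not counted). Of these, 3 had at least 10 CPM in a group, with 0 higher by 2-fold, 2 lower and a median of -1.03. The 2, Pirb and Lilra5, passed that filter only through their WT level, so nothing is read from this count. Among the 8859 features 9.28% were at least 2-fold lower. The inhibitory Pirb was at 29.9 CPM in WT cells and 8.85 CPM in IRF8KO cells under the gate (log2 ratio -1.76), but at 193 CPM in the other IRF8KO cells. Lilra5, an activating receptor, was at 19.4 and 9.48 CPM (-1.03), and Lair1, an inhibitory collagen receptor, at 951 and 484 CPM (-0.97).

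In the Cd300 locus on chromosome 11, 11 genes span 244 kb, and of the 5 with at least 10 CPM 3 were higher and 0 lower by 2-fold. The 3 were Cd300lb and the set members Cd300ld and Cd300lf. All 3 passed that filter only through their level in IRF8KO cells under the gate, so nothing is read from this count. Cd300lb, an activating receptor, had 0.917 CPM in WT cells and 21.8 CPM in IRF8KO cells under the gate, a log2 ratio of 4.57 (3.88 to 5.37). Cd300c2, which lies between Cd300ld and Cd300lf, was at 557 and 478 CPM (-0.22). Cd300e had 0 WT UMIs and 112 UMIs in IRF8KO cells under the gate. This was 36.5-fold higher with the WT count set to the floor of 3, and the interval of the log2 ratio began at 4.87. Cd300ld3 had 2 and 67 UMIs, a log2 ratio of 5.03 (3.12 to 8.11). Cd300c, which lies between Cd300lb and Cd300ld, went the other way, with 11 and 1 UMIs and a log2 ratio of -3.49 (-8.92 to -0.71).

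The Slam neighbours of Cd244 differed in direction. Of the 7 other Slam genes, 6 had at least 10 CPM in a group, with 0 higher, 5 lower by 2-fold and a median of -2.87. All 5 but Cd84 passed that filter only through their WT level, so nothing is read from this count. Among the 8859 features 9.28% were at least 2-fold lower. Slamf7, under 10 CPM in both groups, had 3 and 34 UMIs and a log2 ratio of 3.47 (1.80 to 5.82). Those 34 UMIs lay in 9 cells, and a single cell held 24 of them, so the ratio rests largely on that cell. Slamf6 was at 62.7 CPM in WT cells and 0.896 CPM in IRF8KO cells under the gate (log2 ratio -6.13), Slamf8 at 14.1 and 1.16 CPM (-3.60), and Slamf1 at 10.4 and 1.11 CPM (-3.23). Cd84 was at 372 and 64.6 CPM (-2.52) and Ly9 at 27.3 and 8.64 CPM (-1.66), while Slamf9 was at 55.7 and 68.8 CPM (0.31).

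**Figure D5:**
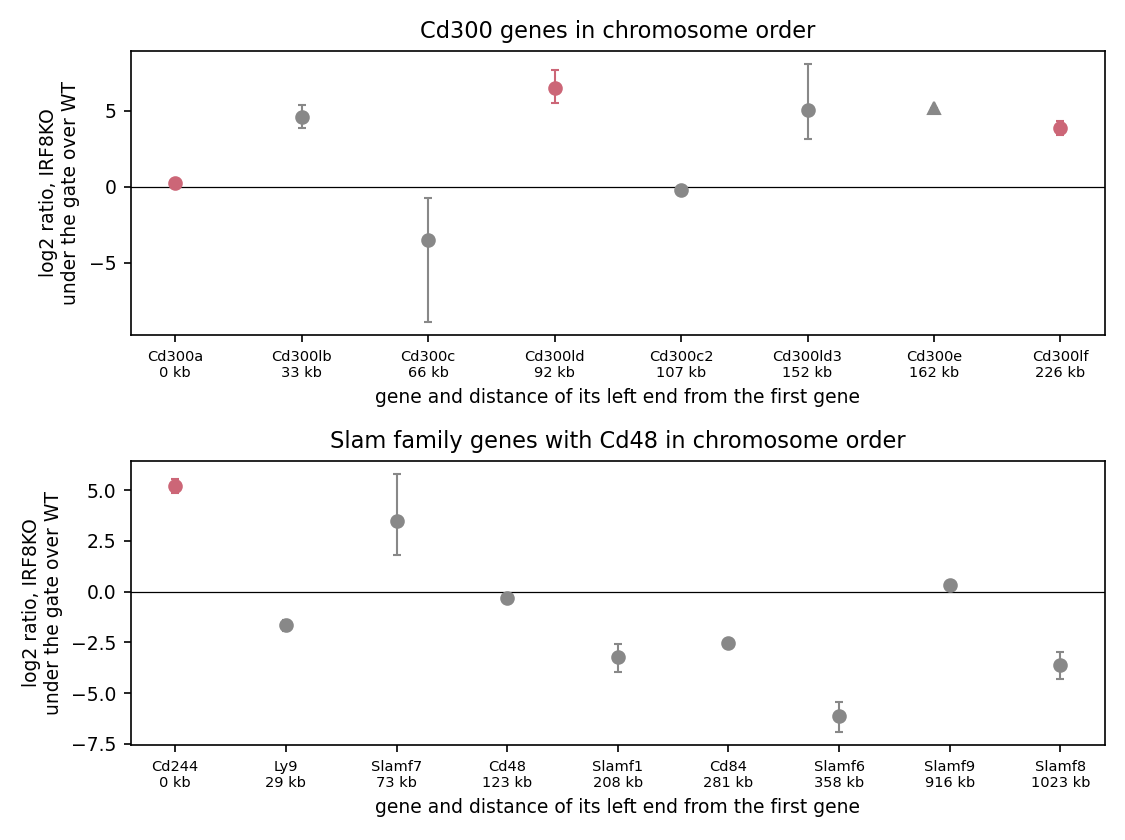
log2 ratio of IRF8KO cells under the gate over WT, with exact 95% intervals, for genes of the Cd300 locus (top) and of the Slam locus with Cd48 (bottom) in chromosome order, with the distance of each gene from the first in kb. Red points are receptors of the set, grey points are neighbours and the triangle is a lower bound. Cd244 stands at 5.18, 5 of its Slam neighbours are below -1 and Slamf7 is at 3.47.

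Of 6 adaptors, 4 had at least 10 CPM, with 2 higher by 2-fold, 0 lower and a median of 1.12. Of the 2, Sh2d1b1 passed that filter only through its level in IRF8KO cells under the gate, so nothing is read from this count. Among the 8859 features 5.61% were at least 2-fold higher. Hcst, which encodes the adaptor DAP10, was at 21.2 CPM in WT cells and 62.1 CPM in IRF8KO cells under the gate (log2 ratio 1.55), and Sh2d1b1, which encodes the Slam adaptor EAT-2, at 1.67 and 28.7 CPM (4.10, 3.58 to 4.67). Sh2d1a, which encodes the Slam adaptor SAP, had no UMI in any group. Tyrobp, which encodes DAP12, was at 2381 and 3859 CPM (0.70) and Fcer1g at 2027 and 3101 CPM (0.61).

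Of 12 kinases and their effectors, 11 had at least 10 CPM, with 0 higher, 1 lower and a median of -0.62, and Syk was at 125 and 81.1 CPM. The 1 that passed was the Src-family kinase Fyn, at 17.9 CPM in WT cells and 1.11 CPM in IRF8KO cells under the gate (-4.01). Fyn had 10 CPM only in WT cells, and 9.28% of the 8859 features were at least 2-fold lower, so nothing is read from this call. Of 8 phosphatases and inhibitory docking proteins, 7 had at least 10 CPM and none passed 2-fold in either direction. Ptpn6, which encodes SHP-1, was at 200 and 192 CPM, Ptpn11 (SHP-2) at 39.4 and 34.6 CPM, and Inpp5d (SHIP-1) at 566 and 422 CPM. Among 4 ligands and partners with at least 10 CPM, Apoe, reported as a ligand of LILRB4, was higher, at 478 CPM in WT cells and 88320 CPM in IRF8KO cells under the gate. Cd48, the Cd244 ligand, was at 124 and 101 CPM and Sema4d at 156 and 123 CPM.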

How the data were processed

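The deposited matrices of both libraries give UMI counts, all whole numbers, for each barcode and feature. Per the submitters' processing notes, bcl2fastq, Cell Ranger 3.1 and Scanpy were used, with mm10. How reads were aligned and cells called is not stated there. The labels' protocols also name a full-length low-input kit, and the values have the form of droplet counts. From the deposited counts, cells were filtered and split as described, UMIs were summed per group and scaled to CPM, and ratios took no pseudocount. Intervals are exact Poisson, conditional binomial and Clopper-Pearson. PCR and cell sampling are not covered by them. A count of 0 was read against a floor of 3 counts per group. Detection used cells thinned to 2000 UMIs without replacement, leaving out 285 WT, 498 IRF8KO cells under the gate and 1 other IRF8KO cell. Scrublet marked 0 WT and 3 IRF8KO cells as doublets, too few for a working call, so none was removed and an alternative left out the cells with the highest scores. Clusters used scanpy 1.11.5 with 2000 variable genes, 30 components, 15 neighbours and Leiden resolution 0.5, and those under 30 cells were not described. edgeR 4.0.16 and DESeq2 1.42.0 gave scaling factors only. Of 31053 identifiers, 30934 matched GENCODE M21 on GRCm38, used for positions. Upstream sequences came from RefSeq. Scripts were tested on simulated data. The genes and lists were chosen with earlier results of these data known. Named list genes are those at least 2-fold changed with at least 10 CPM in a group, or the 3 largest changes where more than 5 passed. Others were chosen after their values were seen.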

Additional observations from a re-analysis of the deposited data

Results flagged for a closer look

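Receptor transcripts also appeared in barcodes that the cell filter left out, which enter no comparison above. The 198 IRF8KO barcodes left out held 159 UMIs of the 9 genes, 909 CPM (773 to 1062), and the 200 WT barcodes left out held 30 UMIs, 184 CPM (124 to 263). The kept cells summed to 875 CPM under the gate and 219 CPM in WT.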

How the results depend on the processing

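With 1 library per group, no value has a replicate, and all intervals cover counting error only. No paired analysis was possible because each genotype has 1 library. The count of 8 receptors at least 2-fold higher and 0 lower was the same under 10 alternatives of scaling, cell weights, filter, gate, doublets and pseudocount, and at a 4-fold threshold. Of 90 log2 ratios of single receptors under the 10 alternatives, 78 stayed within their interval, 12 moved and 0 reversed, and Cd300a ran from 0.19 to 0.56. Pilrb1 ran from 2.22 (a pseudocount of 1 CPM) to 5.09. Depth set the shares of cells with at least 2 receptors: they were 0.726%, 5.54% and 12.7% in WT and 17.1%, 64.8% and 58.9% in IRF8KO cells under the gate at 1000 UMIs, at 3000 UMIs and without thinning. The median pair ratio was 1.55 without thinning. With finer clusters the highest IRF8KO cluster level moved beyond its interval for 4 of the 9 receptors. Leaving out the Apoe-rich cells, chosen after seeing the data, moved the level in the other IRF8KO cells for 5 of 9.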

Other observations

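The WT library held few cells with several receptors at once. Without thinning, 77 of 3304 WT cells (2.33%) had at least 3 of the 9 genes and 1 had 5, while among IRF8KO cells under the gate 1722 (34.4%) had at least 3 and 20 had 8. In the other IRF8KO cells, also without thinning, 1 cell had UMIs of all 9 genes. It was among the 12 with at least 0.5% Apoe (median 11124 UMIs), since the other 86 had no UMI of Cd72 or Cd244.

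Dendritic cell and monocyte markers were low in both main groups. Ccr2, a chemokine receptor of monocytes, was at 5.55 CPM in WT cells and 15.6 CPM in IRF8KO cells under the gate, and Itgax at 4.75 and 9.75 CPM. Ly6c2 had no UMI in either group and was at 516 CPM in the other IRF8KO cells. No mast cell marker of 6 had a UMI in WT cells or in IRF8KO cells under the gate.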
